A study of Mus musculus with 2 samples.

Results

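The Dlx genes were followed in midbrain RNA of healthy B6NCrl mouse embryos, collected at embryonic day 10.5. The 6 members, Dlx1 to Dlx6, were taken from the 43346 gene identifiers of each deposited gene table by their symbols. There was 1 group of 2 biological replicates, both total RNA-seq libraries made from 10 ng of RNA longer than 200 nt. Replicate 1 came from a pool of 69 embryos and replicate 2 from a pool of 51 embryos, males and females mixed in both. No embryo carried a named mutation or treatment, so no condition could be tested. What could be compared were the members with each other, with other genes, and between the libraries.

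Dlx genes are the vertebrate relatives of Distal-less, the homeobox gene that patterns the limbs of flies. In the mouse they lie as 3 pairs of neighbours that face each other and share enhancers in and around the stretch between them. Dlx1, Dlx2, Dlx5 and Dlx6 are known for the development of GABA neurons in the ventral forebrain, including the prethalamus and hypothalamus, where Dlx1 and Dlx2 act before Dlx5 and Dlx6. Outside the brain Dlx5 and Dlx6 give the lower jaw part of the first pharyngeal arch its identity, and Dlx3 acts in ectoderm, placenta, hair and teeth. The midbrain makes its own GABA neurons through other factors, among them Helt, Gata2 and Tal2, and is not a classical site of Dlx expression.

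All 6 proteins bind DNA through a homeodomain, and the stretch that codes for it is where the genes are most alike and where reads could be confused. The coding window of 180 nt, or 60 codons, in which the 6 genes were most similar was located by script in the GENCODE M21 transcripts on GRCm38. Its last part in exon 2 of 3 is shown as 60 nt of each gene, 5′ to 3′ on the coding strand, because it shows both the shared core and the differences that let a read be assigned. Lower case marks the 33 positions at which all 6 genes have the same base and capitals mark the 27 positions at which they do not.
Dlx1 chr2:71531097-71531156 plus strand: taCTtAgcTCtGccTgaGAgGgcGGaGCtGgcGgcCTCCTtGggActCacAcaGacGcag
Dlx2 chr2:71545384-71545443 minus strand: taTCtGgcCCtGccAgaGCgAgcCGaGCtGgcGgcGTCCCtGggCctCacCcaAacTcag
Dlx3 chr11:95121839-95121898 plus strand: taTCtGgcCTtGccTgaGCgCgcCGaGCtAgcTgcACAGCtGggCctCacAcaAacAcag
Dlx4 chr11:95141789-95141848 minus strand: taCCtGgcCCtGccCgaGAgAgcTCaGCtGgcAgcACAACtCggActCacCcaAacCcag
Dlx5 chr6:6879526-6879585 minus strand: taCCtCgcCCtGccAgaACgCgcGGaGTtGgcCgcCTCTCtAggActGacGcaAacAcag
Dlx6 chr6:6865212-6865271 plus strand: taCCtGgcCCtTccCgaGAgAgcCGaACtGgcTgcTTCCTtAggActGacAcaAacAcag

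Over the whole window of 180 nt, identity ran from 67.2% between Dlx4 and Dlx5 to 82.8% between Dlx2 and Dlx3, over 15 comparisons. The genes of a linked pair did not stand out as the most alike, with 74.4% for Dlx1 and Dlx2, 73.9% for Dlx5 and Dlx6 and 72.2% for Dlx4 and Dlx3. The longest run of bases shared by the transcripts of any pair of members was 23 nt, shorter than the reads of 100 nt that the effective lengths imply. The deposited posterior SD of the gene count was 0 for Dlx2, Dlx3, Dlx4, Dlx5 and Dlx6 in both libraries, so the estimates divided no read of these genes with another gene. It was 6.72 counts in replicate 1 and 4.91 counts in replicate 2 for both Dlx1 and Dlx1as, its antisense gene.

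Dlx1, Dlx2 and Dlx5 were present in the midbrain libraries, while Dlx3, Dlx4 and Dlx6 lay near or below the detection limit used here. Levels are in TPM, which corrects for transcript length and library size, so that genes can be compared. Of the 6 members, 3 reached 1 TPM in both libraries, beside 58.1% of 21474 protein-coding genes and 50.2% of 205 homeobox genes, so the family was detected about as often as other genes. In bulk tissue, fewer expressing cells and less RNA per cell cannot be told apart.

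**Figure D1:**
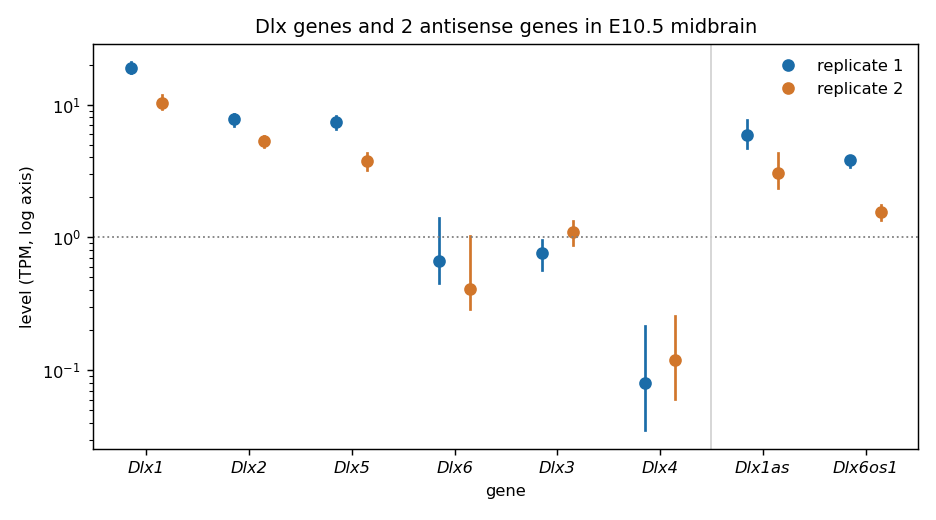
Level of each Dlx gene and of the antisense genes Dlx1as and Dlx6os1 in replicate 1 (blue, left) and replicate 2 (orange, right), in TPM on a log axis; bars are the deposited credible bounds and the dotted line is 1 TPM. With these deposited lengths Dlx1 is the highest in both libraries, and Dlx3 and Dlx4 are the members with the lower value in replicate 1.

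Dlx1, which with Dlx2 starts the GABA neuron programme of the ventral forebrain, had the highest deposited level of the members. It had 18.96 TPM in replicate 1 (credible bounds 17.2 to 20.8) and 10.36 TPM in replicate 2 (9.25 to 11.7), a mean of 14.7 ± 6.08 TPM (SD, n = 2). With the deposited effective lengths its range over the libraries lay above that of every other member. With the length of the longest coding model, a choice made after seeing the data, it had 9.51 and 5.10 TPM. Its range then overlapped those of Dlx2 and Dlx5. These levels rested on 1119.75 and 686.61 expected counts, estimated read numbers in replicates 1 and 2.

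Dlx2, its partner on chromosome 2, had 7.74 TPM in replicate 1 (6.89 to 8.45) and 5.31 TPM in replicate 2 (4.77 to 5.85), a mean of 6.53 ± 1.72 TPM (SD, n = 2), from 496 and 415 counts. Dlx5, which in the forebrain acts after Dlx1 and Dlx2 and which also acts in bone and pharyngeal arches, had 7.46 TPM in replicate 1 (6.53 to 8.23) and 3.78 TPM in replicate 2 (3.21 to 4.34). Its mean was 5.62 ± 2.60 TPM (SD, n = 2), from 290 and 168 counts. The ranges of Dlx2 and Dlx5 over the 2 libraries overlapped, so their order was not separated from the spread.

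Dlx3, known from ectoderm and its appendages, had 0.76 TPM in replicate 1 (0.565 to 0.958) and 1.10 TPM in replicate 2 (0.878 to 1.32), from 56 and 93 counts. Its mean was 0.93 ± 0.24 TPM (SD, n = 2). Dlx6, the partner of Dlx5, had 0.67 TPM in replicate 1 (0.454 to 1.41) and 0.41 TPM in replicate 2 (0.288 to 1.03), from 21 and 13 counts, a mean of 0.54 ± 0.18 TPM (SD, n = 2). The TPM ranges of Dlx3 and Dlx6 over the libraries did not overlap, but their credible bounds did. Dlx4, known with Dlx3 from the pharyngeal arches, had 0.08 TPM in replicate 1 (0.035 to 0.216) and 0.12 TPM in replicate 2 (0.061 to 0.258). These levels came from 4 and 7 counts, against 0.060 and 0.051 TPM for the 3 counts that a count of 0 still allows.

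With the deposited effective lengths the family summed to 35.67 TPM in replicate 1 and 21.08 TPM in replicate 2. Dlx1 made up 53.2% and 49.1% of that sum, Dlx2 21.7% and 25.2%, and Dlx5 20.9% and 17.9%, in replicates 1 and 2. Dlx3 made up 2.13% in replicate 1 and 5.22% in replicate 2, and Dlx4 and Dlx6 were each below it in both libraries. Among the 205 homeobox genes Dlx1 ranked 43 by mean level, Dlx2 66 and Dlx5 70. Dlx3 ranked 111, Dlx6 117 and Dlx4 142, and 33 homeobox genes were listed at 0 in both libraries. The share and rank of Dlx1 depend on the length used. With the length of the longest coding model its mean was 7.30 TPM in place of 14.7 TPM. It then had 5.10 TPM in replicate 2, below the 5.20 TPM of Dlx2.

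**Figure D2:**
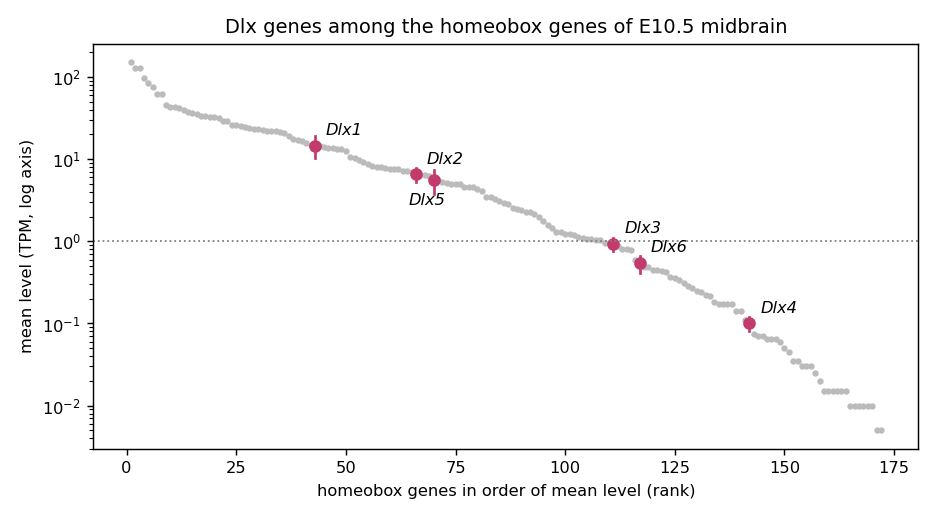
Mean level over both libraries of the homeobox genes that were above 0, in TPM on a log axis, against their rank among 205; Dlx genes are in colour with a bar that joins their values in both libraries. With the deposited lengths Dlx1, Dlx2 and Dlx5 sit in the upper part at ranks 43, 66 and 70 and Dlx4 at rank 142.

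The pairs were set side by side because their genes share enhancers. Dlx1 runs on the plus strand at chr2:71528113-71533981 and Dlx2 on the minus strand at chr2:71543408-71546754 (GRCm38), with 9426 bp between their 3′ ends. Dlx6 lies on the plus strand at chr6:6863334-6868568 and Dlx5 on the minus strand at chr6:6877805-6882085, 9236 bp apart. Dlx3 lies on the plus strand at chr11:95120119-95125296 and Dlx4 on the minus strand at chr11:95140447-95146263, 15150 bp apart. All 3 pairs are thus convergent. With the deposited lengths the members of each pair had unequal levels. For Dlx1 and Dlx2 the size and direction of the difference depended on the lengths and models used.

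**Figure D3:**
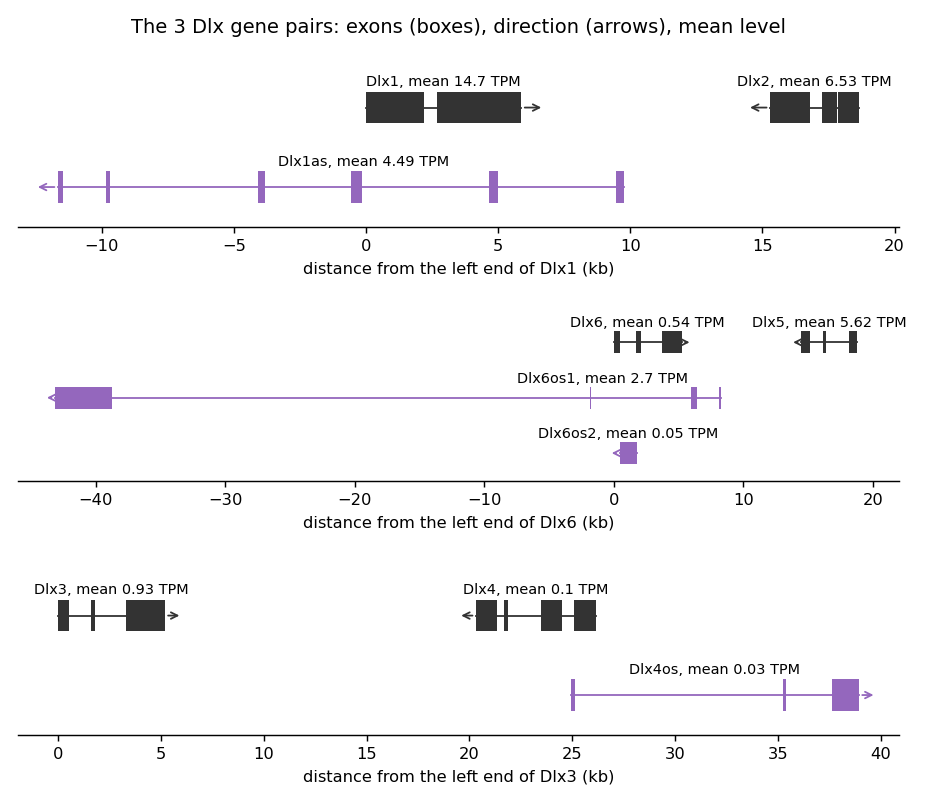
The 3 pairs to scale, by distance in kb from the left end of the left gene; boxes are exons of all models, arrows point in the direction of transcription, and antisense or overlapping noncoding genes are in purple. Mean levels over both libraries in TPM are written above the genes, from 14.7 for Dlx1 to 0.10 for Dlx4.

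Dlx1 stood at 2.45 times the TPM of Dlx2 in replicate 1 and 1.95 times in replicate 2. On the log2 scale with 0.1 TPM added, the difference was 1.28 and 0.95, a mean of 1.12 ± 0.23 (SD, n = 2). This difference rested on the transcript models to which the Dlx1 reads were assigned. When the counts of both genes were divided by the effective length of the longest coding model, a choice made after seeing the data, Dlx1 had 9.51 and 5.10 TPM and Dlx2 7.11 and 5.20 TPM in replicates 1 and 2. The difference then averaged 0.19 ± 0.31 on the log2 scale, with opposite signs in the libraries. This division still counted the Dlx1 reads placed on models not annotated as coding. On the models annotated as coding alone, Dlx1 had 2.29 and 0.98 TPM and Dlx2 6.94 and 5.17 TPM in replicates 1 and 2. Dlx1 then lay below Dlx2 in both libraries.

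Dlx5 stood at 11.1 times the TPM of Dlx6 in replicate 1 and 9.22 times in replicate 2. On the log2 scale with 0.1 TPM added, the difference was 3.30 and 2.93, a mean of 3.11 ± 0.26 (SD, n = 2). With the longest coding models the ratios were 22.1 and 20.6, so the direction held under both lengths. Dlx4 lay below Dlx3 by a log2 difference of -2.26 in replicate 1 and -2.45 in replicate 2, a mean of -2.35 ± 0.14 (SD, n = 2), on 4 and 7 counts of Dlx4. The size of this difference depended on the 0.1 TPM added, and with 1 TPM added its mean was -0.81. For Dlx5 over Dlx6 the mean was 2.05 with 1 TPM added.

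The transcript tables placed most Dlx1 reads on models annotated as retained introns. Its 3 coding models held 12.1% of the Dlx1 TPM in replicate 1 and 9.46% in replicate 2, or 15.7% and 12.6% of the counts. The full-length coding model of 4111 nt (ENSMUST00000037119) had 1.34 TPM in replicate 1 and 0.58 TPM in replicate 2. A model of 3385 nt (ENSMUST00000145088), which keeps the intron before the last exon, had 7.91 TPM in replicate 1 and 4.36 TPM in replicate 2. A short retained-intron model of 803 nt (ENSMUST00000172629) had 8.76 TPM in replicate 1 and 4.32 TPM in replicate 2.

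The credible bounds of the models kept this order: 0.954 to 1.64 TPM in replicate 1 and 0.336 to 0.785 TPM in replicate 2 for the 4111-nt model, against 6.90 to 10.2 TPM and 3.26 to 5.42 TPM for the 803-nt model. The bounds cover the division of reads among the annotated models and not the choice of models. All 4 models from the 803-nt to the 4111-nt one that reach exon 2 contain the homeobox bases printed for Dlx1. Unspliced RNA and a retained intron give the same reads here, and the antisense gene Dlx1as overlaps Dlx1 exons by up to 335 nt. Whether the libraries kept the strand or selected poly(A) RNA was taken as unknown, so reads of the overlap cannot be told apart.

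**Figure D4:**
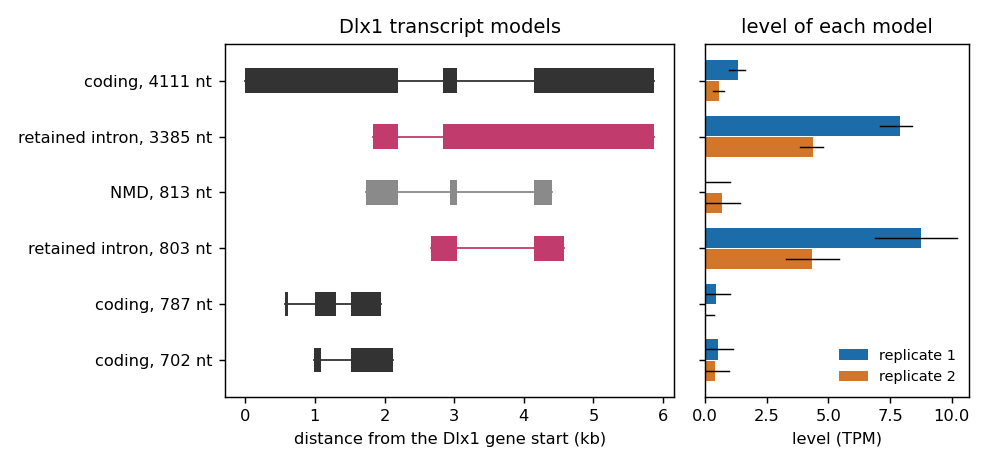
Left, the 6 Dlx1 transcript models by distance in kb from the gene start (NMD, a model annotated for nonsense-mediated decay); right, the level of each in TPM in replicate 1 (blue) and replicate 2 (orange), with black lines for the credible bounds. The retained-intron models of 3385 nt and 803 nt have the longest bars in both libraries.

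The other members had simpler models. The coding model of Dlx2, 2473 nt long, held 89.6% of its TPM in replicate 1 and 97.4% in replicate 2. Dlx5 was assigned to its 1423-nt coding model at 100% in both libraries, and Dlx3 has 1 model. For Dlx4 the noncoding processed transcript of 1593 nt held 76.7% of the TPM in replicate 1 and 71.5% in replicate 2, on 4 and 7 counts for the gene. For Dlx6 the coding models held 64.2% of the TPM in replicate 1 and 74.4% in replicate 2, or 90.5% and 92.3% of the counts. At these counts the Dlx4 and Dlx6 splits were not resolved, since the bounds of every Dlx6 model overlapped those of the others.

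Noncoding genes were detected beside Dlx1 and Dlx6. Dlx1as had 5.90 TPM in replicate 1 (4.72 to 7.63) and 3.07 TPM in replicate 2 (2.34 to 4.31), from 95.25 and 57.39 expected counts. Of these counts 78.0% in replicate 1 and 66.9% in replicate 2 were on its 647-nt model. That model holds the 335-nt overlap with Dlx1, where reads of Dlx1 and Dlx1as cannot be told apart. Dlx6os1, known as Evf2, is a long noncoding RNA gene whose annotated span crosses Dlx6 on the opposite strand. Its RNA acts on the enhancers of Dlx5 and Dlx6. It had 3.84 TPM in replicate 1 (3.42 to 4.10) and 1.56 TPM in replicate 2 (1.36 to 1.76), from 484 and 228 counts. Both values lie above those of Dlx6, with which it shares no exon bases.

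The split of Dlx6os1 between its models was uncertain. Its 4446-nt model held 71.2% in replicate 1 and 100% in replicate 2, but the posterior SD of that model's count was 34.6 and 26.7 counts. The 4248-nt model was at 1.11 TPM in replicate 1 and listed at 0 in replicate 2, where its upper bound was 0.631 TPM. Only the 4248-nt model runs across Dlx6. The 4446-nt model, at chr6:6820189-6861591, lies wholly outside Dlx6, so most of the Dlx6os1 level was not assigned to RNA across that gene. Dlx6os2 had 3 counts in replicate 1 and 1 count in replicate 2, and Dlx4os had 1 count and 2 counts. Their exons overlap Dlx6 by up to 73 nt and Dlx4 by up to 79 nt. A short RNA annotated within Dlx6os1 (ENSMUSG00000098326, 146 nt) had 4 counts in replicate 1 and 1 count in replicate 2.

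Promoter windows from RefSeq (GRCm38.p6), of 250 bases before to 50 bases after each start, were in the table for Dlx1, Dlx2, Dlx6os1, Dlx6os2 and Dlx4os. Those of Dlx1 and Dlx2, the members that had a window, and 1 of the windows of Dlx6os1 are shown because they differ in base composition. They were searched for TAATTA, a homeodomain core that reads the same on both strands, and for CAGCTG, an E-box bound by bHLH factors that also reads the same on both strands. Capitals mark these matches.
Dlx1 chr2:71529195-71529494 plus strand: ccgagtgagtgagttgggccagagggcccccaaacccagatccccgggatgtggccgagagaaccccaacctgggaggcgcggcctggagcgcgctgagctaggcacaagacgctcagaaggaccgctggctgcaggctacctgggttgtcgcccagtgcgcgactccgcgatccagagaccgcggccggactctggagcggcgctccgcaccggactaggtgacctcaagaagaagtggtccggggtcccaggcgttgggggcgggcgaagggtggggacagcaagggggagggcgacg
Dlx2 chr2:71546705-71547004 minus strand: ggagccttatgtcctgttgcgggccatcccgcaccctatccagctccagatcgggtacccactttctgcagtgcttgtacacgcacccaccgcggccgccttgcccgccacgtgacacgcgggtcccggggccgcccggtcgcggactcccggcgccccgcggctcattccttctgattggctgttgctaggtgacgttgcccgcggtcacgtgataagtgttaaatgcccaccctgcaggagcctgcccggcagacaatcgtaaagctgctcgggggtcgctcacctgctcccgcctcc
Dlx6os1 chr6:6869484-6869783 minus strand: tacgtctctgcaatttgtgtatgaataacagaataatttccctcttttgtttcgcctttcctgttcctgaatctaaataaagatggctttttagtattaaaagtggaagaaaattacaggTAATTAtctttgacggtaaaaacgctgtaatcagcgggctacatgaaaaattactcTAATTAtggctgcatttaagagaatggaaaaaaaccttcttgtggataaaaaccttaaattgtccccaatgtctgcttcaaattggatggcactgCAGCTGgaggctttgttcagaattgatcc

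The Dlx1 window held 27 CG dinucleotides and the Dlx2 window 29, against a median of 7 over all 32817 windows, and their G and C content was 69.3% and 66.3%. The window of Dlx6os1 held 5 CG dinucleotides and had a G and C content of 35.7%. It had 2 matches of TAATTA, which occurs in 5.30% of all windows, and 1 match of CAGCTG, which occurs in 16.3% of them. Another Dlx6os1 window, at chr6:6861634-6861933, had 1 match of TAATTA, none of CAGCTG and a G and C content of 35.3%. The Dlx1 and Dlx2 windows had no match of either motif. The RefSeq start of Dlx1 lay 1332 nt inside the GENCODE gene, in the first exon of its longest model. The start of the printed Dlx6os1 window lay 2059 nt inside its gene, in an exon of the 4248-nt model. That of the other Dlx6os1 window lay 9909 nt inside, just before the first exon of the 4446-nt model. These are descriptions of letters and say nothing of binding in the midbrain.

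Between the libraries, Dlx1, Dlx2, Dlx5 and the antisense genes Dlx1as and Dlx6os1 were higher in replicate 1, the coding members by under 2-fold. The comparison used a two-sided exact binomial test on counts scaled by edgeR's TMM factors, with Benjamini-Hochberg adjustment over 14768 genes of at least 1 TPM on average. With 1 library on each side it covers counting error only and compares these libraries, not conditions, and PCR copies are not independent molecules. By a call of adjusted p below 0.05 and at least 2-fold, 0 of 3 tested members were called, against 2.35% of all genes, with 1.68% called higher and 0.67% lower in replicate 1. The 3 tested members had an unadjusted p below 0.05, and the count stayed at 0 with DESeq2 size factors. By 1.5-fold, 2 of 3 members, Dlx1 and Dlx5, were called, both higher in replicate 1, against 7.61% of all genes in either direction and 5.61% higher. With no minimum fold all 3 passed, higher in replicate 1, against 53.3% of all genes in either direction and 26.4% higher.

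The replicate 1 to replicate 2 ratio of Dlx1 was 1.76 (95% counting interval 1.60 to 1.94; exact binomial test, adjusted p = 2.48e-31). Of all tested genes, 3.40% had a ratio at or above it. Dlx5 had a ratio of 1.87 (1.54 to 2.27; exact binomial test, adjusted p = 3.60e-10), which 2.70% of genes reached. Dlx2 had a ratio of 1.29 (1.13 to 1.48; exact binomial test, adjusted p = 0.000357), which 12.5% of genes reached. The intervals of Dlx1 and Dlx2 did not overlap, so the partners differed in how far they stood apart between the libraries beyond counting error.

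Dlx6 had a ratio of 1.72 with a counting interval of 0.835 to 3.80, and Dlx4 one of 0.649 with an interval of 0.133 to 2.43. Both intervals include 1, so no difference was detectable at this depth. Dlx3 ran the other way, with a ratio of 0.654 and an interval of 0.459 to 0.917, and was below the level at which genes were tested. Dlx6os1 was called higher in replicate 1, at a ratio of 2.29 (1.96 to 2.70; exact binomial test, adjusted p = 1.27e-25), which 1.30% of genes reached. Dlx1as had a ratio of 1.80 (1.28 to 2.55; exact binomial test, adjusted p = 0.00123), which is not independent of Dlx1 where their exons overlap.

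**Figure D5:**
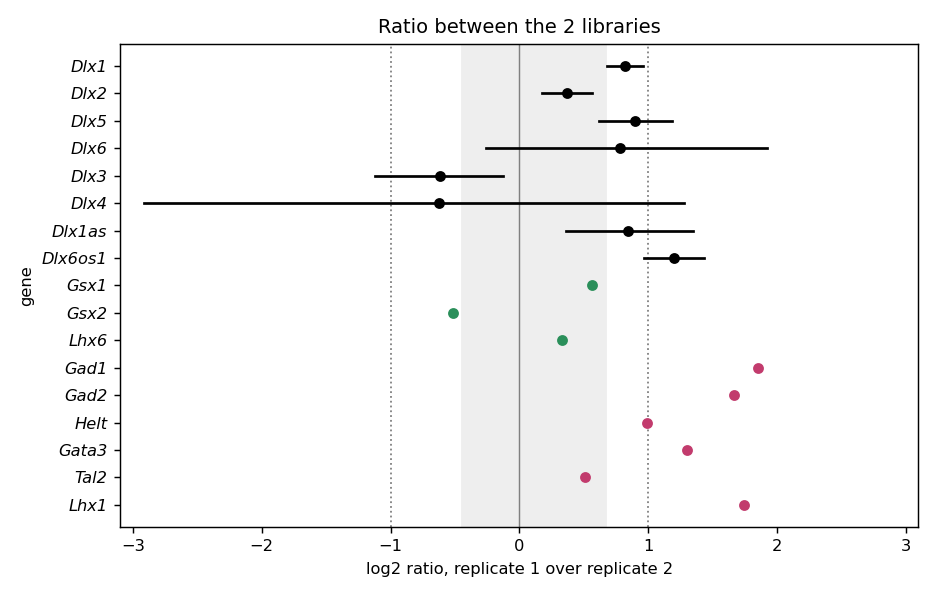
Log2 ratio of replicate 1 over replicate 2 for the Dlx genes and 2 antisense genes (black, bars are 95% counting intervals), for forebrain regulators of the GABA programme (green) and for GABA synthesis and midbrain GABA genes (red); the grey band holds the middle of all tested genes, from -0.44 at the 5th percentile to 0.67 at the 95th, and dotted lines mark 2-fold. Dlx1, Dlx5, Dlx6, Dlx1as and Dlx6os1 lie above the band and Dlx3 and Dlx4 below it.

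Neuronal genes had ratios on the same side as Dlx1 and Dlx5. All 10 neuron markers were higher in replicate 1, with a median log2 ratio of 0.54 against -0.01 over all genes, and 1 of them, Dcx, a microtubule protein of young neurons, was called. They summed to 1548 TPM in replicate 1 against 981 TPM in replicate 2, and none was at 0. The 10 progenitor markers, Vim and Hes5 among them, had a median log2 ratio of 0.08, with none called and summed levels of 2787 and 2305 TPM. Macrophage markers also had ratios above 1: 9 of 10 were higher in replicate 1, with a median log2 ratio of 0.48, none called at 2-fold and 3 at 1.5-fold, as many as among the neuron markers. They summed to 94.3 TPM in replicate 1 against 64.3 TPM in replicate 2, and none was at 0. The part of neuron or macrophage content in the Dlx ratios was not tested.

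Most midbrain markers were detected. Of 13 midbrain genes, 11 were detected, and none of the 11 tested was called between the libraries. En2, with 0.92 TPM in replicate 1 and 0.71 TPM in replicate 2, and Pax2, with 0.50 and 0.93 TPM, lay below 1 TPM. En1 was detected at 4.74 and 4.46 TPM. Otx2, needed for forebrain and midbrain, had 138 TPM in replicate 1 and 123 TPM in replicate 2. Hoxa3, a gene of the hindbrain and trunk, had no count in either library. Other tissue was present as well: all 10 red cell genes, all 10 endothelial genes and 9 of 10 macrophage genes were detected.

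The forebrain programme in which Dlx genes are best known was present in part. Of 24 genes of it, 21 were detected, with a median of 8.21 TPM in replicate 1 and 4.67 TPM in replicate 2, and 2 of 21 tested were called higher and 0 lower in replicate 1, at a median log2 ratio of 0.15. Gsx1 had 9.36 and 5.99 TPM and Gsx2 had 2.16 and 2.91 TPM in replicates 1 and 2, both of them homeobox genes upstream of Dlx2 in the ganglionic eminences. Lhx6, a marker of interneurons from the medial ganglionic eminence, had 1.39 and 1.02 TPM.

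The 2 called genes were Gad1 and Gad2, which make GABA. Gad1 had 6.64 TPM in replicate 1 and 2.20 TPM in replicate 2, a ratio of 3.61 (exact binomial test, adjusted p = 1.90e-47). Gad2 had 11.1 TPM in replicate 1 and 3.34 TPM in replicate 2, a ratio of 3.18 (exact binomial test, adjusted p = 8.63e-96). Both ratios were larger than that of any Dlx member tested. Slc32a1, the vesicular GABA transporter, had 0.58 TPM in replicate 1 and 0.21 TPM in replicate 2.

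Most midbrain GABA genes were also higher in replicate 1, 12 of 13 tested. Of the 13, 6 were called higher and 0 lower in replicate 1, Gad1 and Gad2 among them, with a median log2 ratio of 0.99. Helt, which sets the GABA fate in midbrain progenitors, had 34.8 TPM in replicate 1 and 16.54 TPM in replicate 2, a ratio of 1.99 that missed the call. Gata3, a factor of GABA neurons that follows Gata2, had 23.95 TPM in replicate 1 and 8.92 TPM in replicate 2, a ratio of 2.47. Lhx1, a LIM homeobox gene of midbrain GABA neurons, had 16.74 TPM in replicate 1 and 4.72 TPM in replicate 2, a ratio of 3.35. Sox14, a gene of some GABA neurons, had 8.54 TPM in replicate 1 and 1.08 TPM in replicate 2, a ratio of 8.47 in a gene named after its values were seen. Smaller ratios were found for Tal2, at 1.43, and Lhx5, at 1.22, neither of them called. Zfpm1, also named after its values were seen, ran the other way at 0.834.

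Markers of prethalamus, eye and other forebrain had a median ratio near 1. Of 16, 11 were detected, and 0 of 12 tested were called higher and 3 lower in replicate 1, with a median log2 ratio of -0.09 and summed levels of 109 and 111 TPM. Fezf2, a forebrain zinc finger gene, had 3.92 TPM in replicate 1 and 7.78 TPM in replicate 2, a ratio of 0.478 that was called lower. Nkx2-1, of the hypothalamus and ventral telencephalon, had 7.93 and 7.77 TPM. How far forebrain cells at the border of the dissection account for the Dlx levels was not tested.

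Markers of the non-neural sites of Dlx genes were also present. Of 23 pharyngeal arch mesenchyme genes, 15 were detected and 0 were called higher and 1 lower of 16 tested, with a median log2 ratio of -0.14. The called gene, named after its values were seen, was Sox10, a marker of neural crest, with 0.46 TPM in replicate 1 and 2.15 TPM in replicate 2, a ratio of 0.203. The list summed to 821 TPM in replicate 1 against 651 TPM in replicate 2, and the collagen genes Col3a1, with 416 and 317 TPM, and Col1a1, with 149 and 72.6 TPM, held most of that sum. Also named after their values were seen, the mesenchymal homeobox genes Prrx1, with 12.5 and 14.0 TPM, and Prrx2, with 18.95 and 25.19 TPM, had ratios of 0.840 and 0.780. Pitx1 had no count in replicate 1 and 29 counts, or 0.37 TPM, in replicate 2. Hand2, a target of Dlx5 and Dlx6 in the lower jaw, had no count in either library, and Edn1, the endothelin signal that turns Dlx5 and Dlx6 on there, had 0.83 and 0.70 TPM. Msx1, a homeobox gene of mesenchyme and of the dorsal neural tube, had 126 TPM in replicate 1 and 131 TPM in replicate 2.

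Of 20 ectoderm and placode genes 14 were detected, none of 14 tested was called, and the median log2 ratio was -0.38, on the same side as that of Dlx3. Summed levels were 130 and 136 TPM, and Foxi3 and Foxe1 were at 0 in replicate 1. Trp63, the main regulator of surface ectoderm, had 2.92 TPM in replicate 1 and 3.91 TPM in replicate 2. Other lists had negative medians as well, among them the red cell genes at -0.26, with 0 of 10 higher in replicate 1. The part of ectoderm or of any other tissue in the Dlx3 difference was not tested. Among 13 partners and inducing signals 12 were detected and none was called, and the highest, Maged1, a protein that binds Dlx5, had 562 TPM in replicate 1 and 482 TPM in replicate 2.

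Homeobox genes nearest in level were found by distance over log2(TPM + 1) in the 2 libraries, which is a likeness of 2 values only. Nearest to Dlx1 was Lhx9 at a distance of 0.135, with 17.69 TPM in replicate 1 and 9.63 TPM in replicate 2, followed by Pou2f2 at 0.258. Nearest to Dlx2 were Zhx3 at 0.076 and Prox1 at 0.144. Nearest to Dlx5 was Six3, a forebrain and eye gene, at 0.179, with 6.70 TPM in replicate 1 and 3.41 TPM in replicate 2, followed by Pou6f1 at 0.233. Of 108 homeobox genes tested, 2 were called higher and 5 lower in replicate 1, with a median log2 ratio of 0.08.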

How the data were processed

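Tables of 2 libraries of 1 group were used as deposited. Per the file headers the tables are on mm10 with GENCODE M4. No aligner or quantifier is given in the sources used here. The authors' expected counts are estimates that divide reads among transcripts and genes. The deposited TPM divide counts by effective length (length less 99 nt), and the deposited FPKM served as an alternative. The deposited credible bounds, a signal on the TPM scale, come with no stated level. The deposited isoform percent is a model's share of its gene. Names came from GENCODE M21 (42462 of 43346 identifiers matched).

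Total expected counts were 47128426 and 52189568 in replicates 1 and 2. Rows for tRNA and spike-ins, with 3.39% and 3.28% of them, stayed out of tests. Counts were rounded and scaled by TMM (edgeR 4.0.16; DESeq2 1.42.0 size factors as alternative), with 0.5 added in ratios. Counting error is all that the intervals and the floor of 3 counts describe. Simulated counts served to check the test. Genes were named by a rule on level and calls within lists; those outside it are marked or serve as examples of a list. Some genes that it took are left out of the text, while list counts and medians include them. The members and lists were chosen with earlier results of these data known. Protein identity was not analysed here. R 4.3.3 and Python 3.11.15 were used, with scipy 1.17.1, pandas 2.3.3 and numpy 2.4.6.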

Additional observations from a re-analysis of the deposited data

How the results depend on the processing

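Relative to the values reported, 46 planned and 6 added alternatives kept their direction and side of the threshold or moved by less than the spread between replicates. The Dlx5 over Dlx6 log2 difference, 3.11, became 2.05 with 1 TPM added, 2.65 with posterior mean TPM and 3.94 with the length of the longest coding model. The Dlx4 over Dlx3 difference, -2.35, became -0.81, -2.11 and -2.53 under the same settings and -2.05 with FPKM. The Dlx1 over Dlx2 difference, 1.12, became 0.19 with the coding length. Calls between the libraries over all genes, 347, became 1085 without the filter on low values and 1124 at 1.5-fold, where calls among Dlx genes became 2. As a share of expected counts, coding models held 14.2% of Dlx1 in place of 10.8%, and 91.4% of Dlx6 in place of 69.3%. Mean levels of Dlx4 and Dlx6 became 0.135 and 0.77 TPM with posterior means, and those of Dlx1 and Dlx6 7.30 and 0.261 TPM with the coding length. The coding length and the share of counts were chosen after seeing the data. DESeq2 size factors and library totals left the Dlx calls at 0. Of the 6 members 4 were detected at a minimum of 0.5 TPM, 2 at 5 TPM, and 3 to 4 with each replicate left out. No paired analysis was possible because there is 1 group. Depth limits Dlx4 and Dlx6, with 4 to 21 counts a library.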
